A study of Mus musculus with 12 samples.

Results

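The genes described are 10 genes of triglyceride breakdown and of the lipid droplet surface, out of 55414 gene entries in the count table. They comprise the lipases and the lipase co-activator Pnpla2, Abhd5, Lipe and Mgll, the lipase inhibitor G0s2, the droplet coat proteins Plin2, Plin3, Plin4 and Plin5, and the droplet fusion protein Cidec. Members were chosen by symbol, with earlier CLP against sham values of these same libraries in view, so their differences between CLP and sham are given as a description. All 10 symbols were found by their Ensembl identifiers and all 10 passed the low-count filter in each organ.

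The study profiled total RNA by RNA-seq in C57BL/6J wild-type (WT) mice that underwent cecal ligation and puncture (CLP), a surgery that lets gut content leak into the abdomen and serves to model sepsis. Sham-operated WT mice of the same strain were the controls. The 4 groups were CLP liver, sham liver, CLP lung and sham lung, each with 3 libraries taken 6 h after surgery. The labels give neither age nor sex, nor do they state that the 3 libraries of a group are separate mice, so the p-values rest on the spread among these libraries, which may be technical. Every mouse was WT and had free access to a chow diet. Total counts were between 10559895 and 15854117 per library, with overlapping ranges in the 4 groups.

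Triglyceride in lipid droplets is hydrolysed stepwise. Adipose triglyceride lipase (ATGL, the product of Pnpla2) removes the first fatty acid with the help of its co-activator CGI-58 (Abhd5), hormone-sensitive lipase (Lipe) acts mainly on the diglyceride, and monoacylglycerol lipase (Mgll) on the monoglyceride. The G0s2 protein binds ATGL and inhibits it, and the perilipins coat droplets and control the access of the lipases. In liver this system sets how much stored fat is released for oxidation or secretion, and in lung droplets are known in lipofibroblasts, macrophages and alveolar type 2 cells.

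The promoters of the 4 genes on which the results turn are shown because G0s2, Lipe and Mgll were low together in CLP livers, whereas Plin2 was high in CLP lungs. They come from RefSeq on GRCm38.p6 (the counts were made on another build), span 250 bases before and 50 bases after an annotated start, and run 5′ to 3′ on the strand of the gene. Capitals mark matches on either strand to AGGTCA (a nuclear receptor hexamer), CACGTG (an E-box), TGACG (the core of the cAMP response element) or TATAAA (the core promoter letters bound by TBP). The 4 regions are chr1:193273139-193273438 on the minus strand for G0s2, chr7:25395938-25396237 on the minus strand for Lipe, chr6:88724162-88724461 on the plus strand for Mgll and chr4:86670010-86670309 on the minus strand for Plin2. Lipe and Mgll each have 2 annotated starts, and the upstream one is printed.
G0s2: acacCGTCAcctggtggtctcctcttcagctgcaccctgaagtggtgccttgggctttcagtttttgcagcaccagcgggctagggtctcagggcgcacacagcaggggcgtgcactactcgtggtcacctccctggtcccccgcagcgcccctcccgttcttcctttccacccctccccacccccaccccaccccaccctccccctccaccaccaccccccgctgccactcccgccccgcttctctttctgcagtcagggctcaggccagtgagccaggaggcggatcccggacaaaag
Lipe: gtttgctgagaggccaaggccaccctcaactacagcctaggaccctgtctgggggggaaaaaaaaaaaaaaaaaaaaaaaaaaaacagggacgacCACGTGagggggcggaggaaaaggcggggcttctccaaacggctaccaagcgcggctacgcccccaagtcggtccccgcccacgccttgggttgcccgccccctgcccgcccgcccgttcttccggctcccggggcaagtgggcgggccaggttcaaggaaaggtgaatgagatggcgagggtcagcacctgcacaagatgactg
Mgll: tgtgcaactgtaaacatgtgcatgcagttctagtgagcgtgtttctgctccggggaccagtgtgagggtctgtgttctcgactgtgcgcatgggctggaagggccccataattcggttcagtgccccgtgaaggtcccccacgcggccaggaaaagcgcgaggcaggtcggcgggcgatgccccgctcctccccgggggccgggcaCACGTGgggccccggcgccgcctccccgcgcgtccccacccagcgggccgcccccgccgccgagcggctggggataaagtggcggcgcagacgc
Plin2: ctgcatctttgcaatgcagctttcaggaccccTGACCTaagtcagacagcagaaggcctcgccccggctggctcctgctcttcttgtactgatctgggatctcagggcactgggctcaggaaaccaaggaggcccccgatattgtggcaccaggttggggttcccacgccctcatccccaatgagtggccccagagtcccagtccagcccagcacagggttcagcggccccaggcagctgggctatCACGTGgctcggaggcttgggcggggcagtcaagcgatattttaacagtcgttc

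All 10 genes had a promoter in the RefSeq table, with 14 start sites. The E-box letters were found at 3 of the 14 start sites (Lipe, Mgll and Plin2). They are held by 7.15% of the 32851 mouse promoters of the same length that were counted, which do not cover every chromosome. AGGTCA was found at 4 start sites (Abhd5, Plin2 and Plin5), against 16.3% of the promoters counted. TGACG was found at 3 (Abhd5, G0s2 and Mgll), against 20.8%, and for Mgll only at the start site that is not printed. The match in G0s2 begins 246 bases before the start. TATAAA, present in 13.6% of the promoters counted, occurred in none of the 14 windows. These matches describe letters and not binding sites. On chromosome 17, Plin4 and Plin5 are neighbours with 0 annotated genes between them, and Plin3 lies 9 genes from Plin5.

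In the liver, the transcripts of the ATGL inhibitor and of the lipases for diglyceride and monoglyceride were low after CLP, while those of ATGL itself and its co-activator were not. G0s2 averaged 3.13 ± 1.15 CPM (read counts scaled to a common library size) in CLP livers and 79.7 ± 44.6 CPM in sham livers (SD, n = 3 each), a log2 fold change of -4.70 ± 0.62 (SE). Lipe and Mgll changed by -2.25 ± 0.16 and -2.01 ± 0.31 on the log2 scale, and Plin5 by -0.78 ± 0.26. These 4 members were lower in CLP livers past an adjusted p of 0.05 in edgeR's quasi-likelihood fit of all genes, and 0 members were higher. Among all 12392 genes tested in liver, 21.0% were lower and 21.4% higher. As the members were chosen with this contrast known, nothing is read from their count or their median. The median log2 fold change of the 10 members was -0.43, beside -0.01 over all genes tested. Scaling by library totals in place of TMM moved the median gene by -0.20 in liver and -0.10 in lung (log2).

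G0s2, the inhibitor, stood at 1.98, 3.12 and 4.28 CPM in the CLP livers, against 30.2, 116 and 92.6 CPM in the sham livers. The groups did not overlap, and the highest CLP library lay 7.05-fold below the lowest sham library. The counts behind these values were 16, 24 and 26 reads in CLP livers and 259, 976 and 961 reads in sham livers, so the low group rests on few reads but none near 0. Sham livers differed among themselves more than CLP livers did. The sham library with the lowest G0s2, replicate 1, also had the lowest Plin2, Mgll and Lipe of the sham livers.

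Lipe, the hormone-sensitive lipase, stood at 4.95, 6.90 and 5.59 CPM in CLP livers, against 24.9, 29.4 and 28.8 CPM in sham livers. Mgll, the monoacylglycerol lipase that also clears the endocannabinoid 2-arachidonoylglycerol, stood at 110.2, 69.5 and 155 CPM in CLP livers, against 333, 517 and 498 CPM in sham livers. For both lipases every CLP library was below every sham library, by at least 3.61-fold for Lipe and 2.15-fold for Mgll. The kit marks strand, but how strand entered the counting is not given in the sources used here. An antisense gene, Gm26588, shares 167 bases with Mgll and had 2 to 6 reads in CLP livers and 88 to 244 reads in sham livers, while Mgll summed to 2367 reads over the CLP livers and 12365 reads over the sham livers.

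Pnpla2, which encodes ATGL, stood at 182, 255 and 278 CPM in CLP livers, against 224, 220.1 and 179 CPM in sham livers. Its co-activator Abhd5 stood at 50.6, 31.5 and 35.7 CPM in CLP livers, against 32.0, 28.8 and 33.7 CPM in sham livers. Both pairs of groups overlapped and neither gene passed the threshold, with log2 fold changes of 0.20 ± 0.17 for Pnpla2 and 0.32 ± 0.18 for Abhd5. Abhd5 passed it, as higher, when CLP replicate 2 was left out (log2 fold change 0.47).

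**Figure D1:**
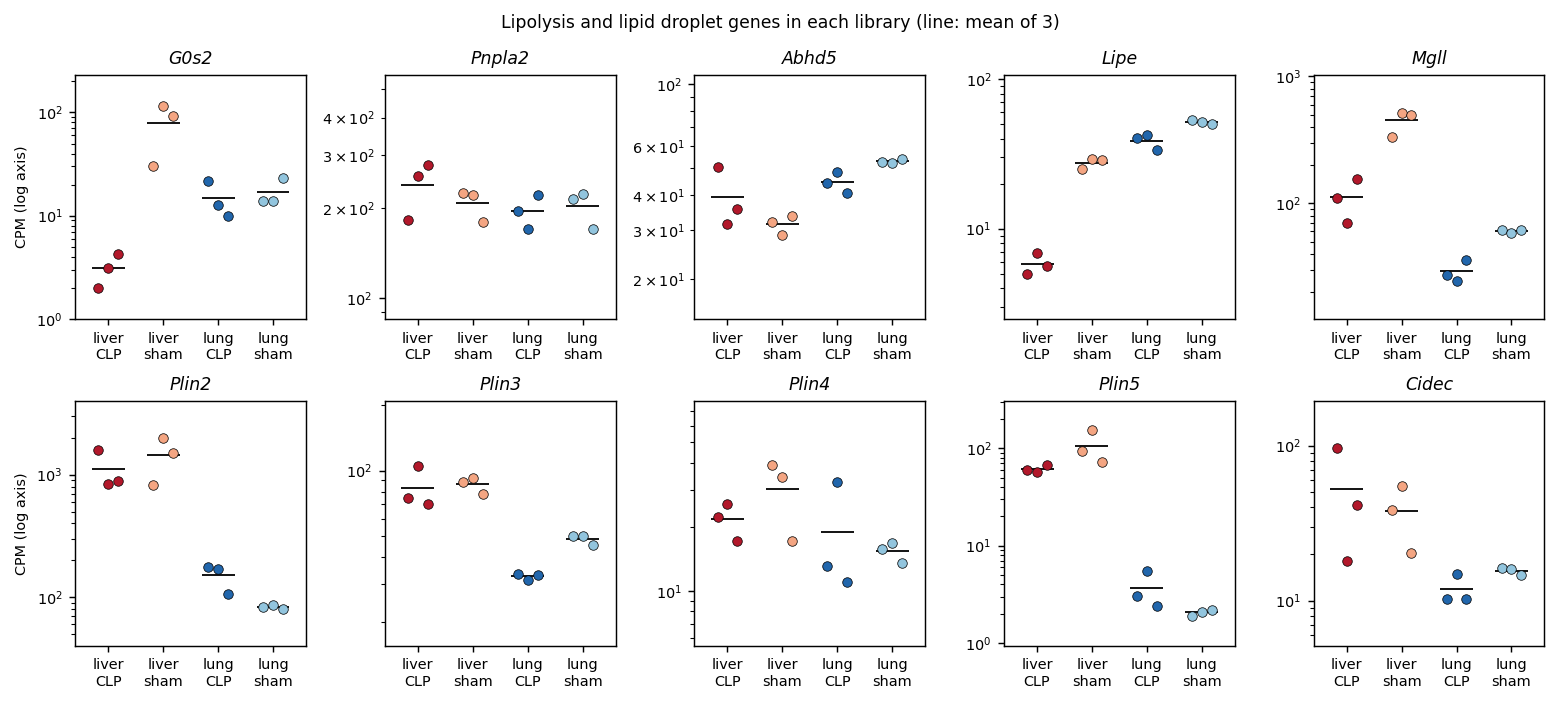
CPM of each gene in every library (points, log axis whose range differs between panels), with the group mean as a line, for CLP liver, sham liver, CLP lung and sham lung. G0s2, Lipe, Mgll and, by only 1.06-fold, Plin5 do not overlap between CLP and sham livers. Plin2, Plin3, Mgll, Lipe, Plin5 and Abhd5 do not overlap between CLP and sham lungs, with the narrowest gaps for Lipe (1.19-fold), Plin5 (1.09-fold) and Abhd5 (1.08-fold).

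The droplet coat transcripts of the liver showed smaller differences. Plin2, the main coat protein of hepatocyte droplets, stood at 1579, 842 and 890 CPM in CLP livers, against 826, 2000 and 1506 CPM in sham livers. The ranges overlapped almost entirely, and the log2 fold change of -0.39 ± 0.37 did not pass. Plin3, a coat protein that shuttles between cytosol and droplets, had 70.3 to 105 CPM in CLP livers and 77.8 to 92.8 CPM in sham livers (log2 fold change -0.06 ± 0.15, not passed).

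Plin5, the perilipin of oxidative tissues that links droplets to mitochondria, stood at 60.3, 57.3 and 68.1 CPM in CLP livers, against 93.2, 153 and 72.2 CPM in sham livers. The groups did not overlap, but the nearest libraries were only 1.06-fold apart, and in 7 of 11 alternative fits Plin5 did not pass, 5 of them being those without CLP replicate 1, 2 or 3 (-0.76, -0.72 and -0.85) or without sham replicate 1 or 2 (-0.86 and -0.42). Plin4, a coat protein best known from adipocytes and muscle, stood at 17.1 to 25.6 CPM in CLP livers and 17.1 to 39.2 CPM in sham livers (log2 fold change -0.47 ± 0.31, not passed). It passed, as lower, without sham replicate 3 (-0.76).

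Cidec, whose protein fuses small droplets into large ones, stood at 97.2, 18.0 and 41.5 CPM in CLP livers, against 38.3, 54.8 and 20.4 CPM in sham livers. Its sign followed CLP replicate 1, since the log2 fold change was 0.47 ± 0.64 with that library and -0.35 without it. The same library was also the highest of the CLP livers in Plin2 and Abhd5.

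Marker transcripts of the expected cells were present in each organ. Summed over 10 hepatocyte markers, CLP livers had 187241 to 220388 CPM and sham livers 145782 to 187367 CPM, and 1 of the 10 tested was higher and 2 were lower after CLP. Neutrophil markers summed to between 284 and 413 CPM in CLP livers and between 28.9 and 32.5 CPM in sham livers, with 10 of 10 tested higher. Monocyte and macrophage markers summed to 374 to 483 CPM in CLP livers and 333 to 352 CPM in sham livers (5 higher and 3 lower of 11 tested), and stellate cell markers to 332 to 374 CPM in CLP livers and 362 to 417 CPM in sham livers (2 higher and 2 lower of 10). Of 10 adipocyte markers, Plin1, Lep and Lgals12 had 0 reads in every liver library, and Adipoq, Cfd and Ucp1 had at most 1 read in any. Fabp4, the only marker of that list tested in liver, was higher after CLP (log2 fold change 1.85 ± 0.21, adjusted p = 0.000372 by edgeR). In these bulk samples, fewer cells of a type and less RNA per cell cannot be told apart, and the part of shifting cell types in the member values was not tested.

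In the lung, Lipe and Mgll were also lower after CLP, by less than in liver for Lipe, whereas G0s2 and Pnpla2 showed no difference beyond their spread and Plin2 was higher. Mgll changed by -1.03 ± 0.14 (log2 fold change ± SE), Plin3 by -0.55 ± 0.08, Lipe by -0.39 ± 0.10 and Abhd5 by -0.23 ± 0.08, and Plin2 changed by 0.88 ± 0.18. By the same threshold 1 member was higher and 4 were lower, where 23.9% of all 15441 genes tested in lung were higher and 24.9% lower. Again nothing is read from the count or the median. The median over the 10 members was -0.20, beside -0.03 over all genes tested.

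G0s2 stood at 21.5, 12.6 and 9.98 CPM in CLP lungs, against 13.8, 14.0 and 23.1 CPM in sham lungs. The groups overlapped, although the CLP lungs at 12.6 and 9.98 CPM lay below every sham lung. The log2 fold change was -0.18 ± 0.32, with the sign turned when CLP replicate 3 (0.07) or sham replicate 3 (0.14) was left out. Pnpla2 stood at 195, 169.6 and 220.3 CPM in CLP lungs, against 214, 223 and 169.7 CPM in sham lungs. ATGL transcripts thus had overlapping groups in both organs, and the log2 fold change in lung was -0.03 ± 0.14.

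Mgll stood at 27.1, 24.4 and 35.7 CPM in CLP lungs, against 61.1, 58.8 and 61.2 CPM in sham lungs. Every CLP lung was below every sham lung, by 1.65-fold between the nearest libraries. Lipe stood at 40.4, 42.3 and 33.5 CPM in CLP lungs, against 53.7, 51.4 and 50.1 CPM in sham lungs. The gap for Lipe was 1.19-fold, and its antisense neighbour 4732471J01Rik, which shares 918 bases, had at most 18 reads in CLP lungs and 21 reads in sham lungs. Abhd5 stood at 44.2, 48.2 and 40.8 CPM in CLP lungs, against 52.6, 52.2 and 53.9 CPM in sham lungs. Its gap was 1.08-fold, and 9 of 11 alternative fits no longer placed it past the threshold. Among these were the fits without CLP replicate 1 (-0.22) or 3 (-0.14) and without sham replicate 1 (-0.24), 2 (-0.24) or 3 (-0.18).

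Plin2 stood at 178, 170.3 and 106 CPM in CLP lungs, against 83.7, 86.4 and 80.6 CPM in sham lungs. All CLP lungs were above all sham lungs, with replicate 3 the lowest of the CLP group and still 1.22-fold above the highest sham library. Plin3 stood at 33.3, 31.2 and 33.1 CPM in CLP lungs, against 50.1, 49.8 and 45.3 CPM in sham lungs. The 2 coat proteins therefore lay on opposite sides of sham in the same libraries, Plin3 by a gap of 1.36-fold.

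**Figure D2:**
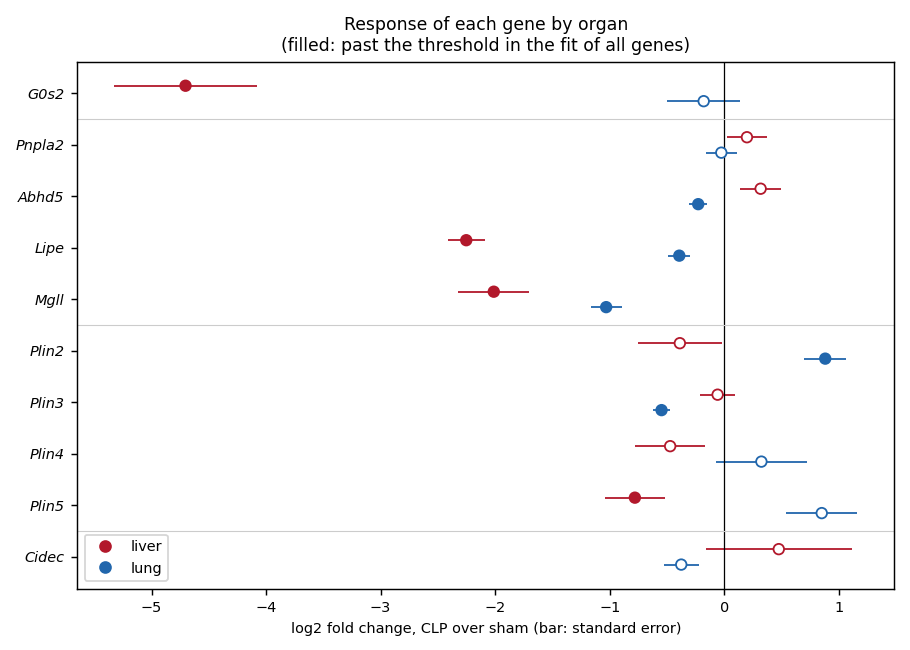
Log2 fold change of CLP over sham for each gene in liver (red) and lung (blue), with the standard error as a bar and filled points for genes past an adjusted p of 0.05 in the fit of all genes. G0s2 lies at -4.70 in liver and -0.18 in lung, and Plin2 at -0.39 in liver and 0.88 in lung.

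One CLP lung stood apart in adipocyte transcripts, and the values of the remaining droplet genes are therefore given with and without it. Summed over 10 adipocyte markers, CLP lung replicate 2 had 112 CPM, the other CLP lungs 42.1 and 42.8 CPM, and the sham lungs 49.4 to 57.1 CPM. Adiponectin (Adipoq) had 11, 101 and 13 reads in CLP lungs and 18, 21 and 42 reads in sham lungs, and the adipocyte perilipin Plin1 had 2, 44 and 9 reads in CLP lungs and 13, 23 and 29 reads in sham lungs. Not every marker peaked in that library: Trarg1 stood at 16.01, 16.9 and 19.9 CPM in CLP lungs, against 23.2, 23.9 and 21.3 CPM in sham lungs, and Lgals12 at 2.60 CPM in CLP replicate 2, within the sham range of 1.93 to 3.23 CPM. None of the 10 markers was at 0 in all libraries of either lung group, and of the 8 tested 0 were higher and 1 was lower after CLP.

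Plin4 stood at 13.1, 32.6 and 11.0 CPM in CLP lungs, against 15.8, 16.8 and 13.5 CPM in sham lungs. Its highest value was in that same library, and the log2 fold change was 0.32 ± 0.40 with it and -0.29 without it. Plin5 stood at 3.03, 5.54 and 2.40 CPM in CLP lungs, against 1.88, 2.11 and 2.20 CPM in sham lungs, and the log2 fold change of 0.85 ± 0.31 was 0.46 without that library. Plin5 groups did not overlap, with a gap of 1.09-fold, and the gene did not pass, although it did in 4 of 11 alternative fits, 1 of them without CLP replicate 3 (1.11). Cidec stood at 10.2, 14.9 and 10.3 CPM in CLP lungs, against 16.3, 15.99 and 14.6 CPM in sham lungs. It did not pass with all libraries (-0.38 ± 0.15) and did so, as lower, without CLP replicate 2 (-0.54). Without that library the log2 fold changes were 0.83 for Plin2, -0.48 for Plin3, -0.88 for Mgll, -0.42 for Lipe, -0.25 for Abhd5 and -0.04 for G0s2, on the same side of the threshold as before, and Pnpla2, which passed in neither fit, turned to 0.10. The part of adipocyte transcripts in these values was not tested.

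**Figure D3:**
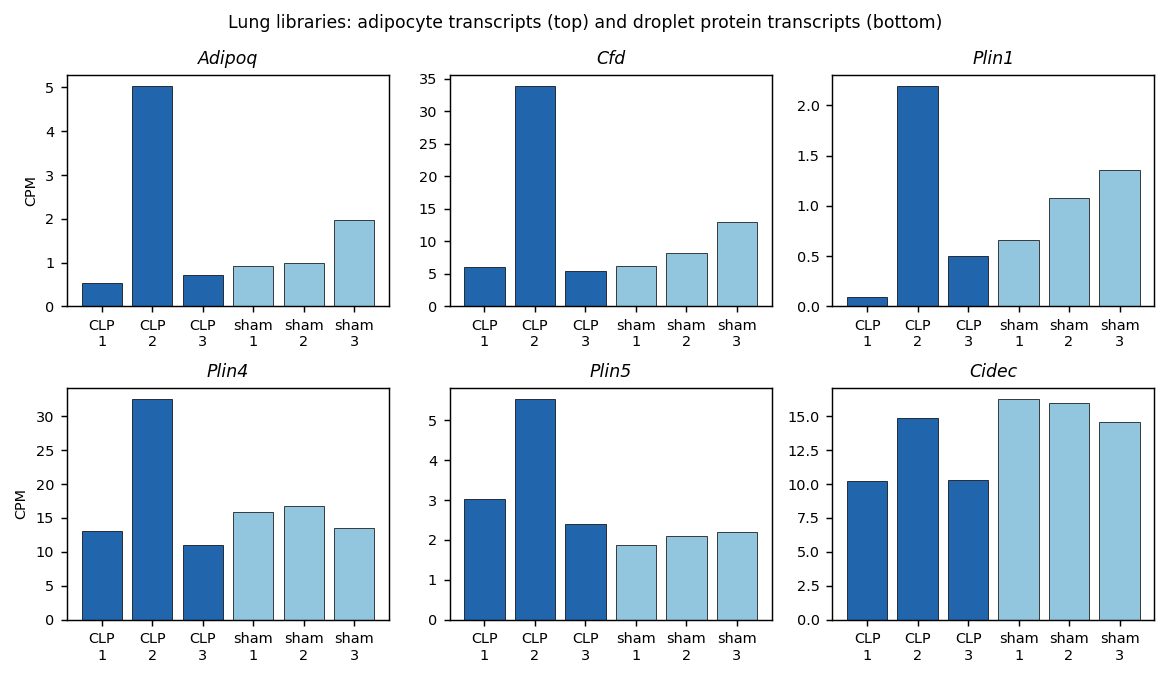
CPM in each lung library of 3 adipocyte transcripts (top) and of 3 droplet protein genes (bottom), CLP libraries dark and sham libraries light. CLP replicate 2 is the highest lung library for Adipoq, Cfd, Plin1, Plin4 and Plin5, but for Cidec it lies within the sham range.

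Other markers that moved in lung were those of neutrophils, which summed to between 4506 and 6576 CPM in CLP lungs and between 643 and 717 CPM in sham lungs, with 12 of 12 tested higher. Monocyte and macrophage markers summed to between 1051 and 1314 CPM in CLP lungs and between 665 and 786 CPM in sham lungs (8 higher and 1 lower of 10 tested). Lipofibroblast and fibroblast markers summed to between 1733 and 2402 CPM in CLP lungs and between 3068 and 3459 CPM in sham lungs (2 higher and 5 lower of 10), alveolar type 2 markers to between 17235 and 19587 CPM in CLP lungs and between 20075 and 21683 CPM in sham lungs (1 higher and 2 lower of 10), and endothelial markers to between 2016 and 2318 CPM in CLP lungs and between 2305 and 2502 CPM in sham lungs (1 higher and 6 lower of 9). Their part in the lung values of Plin2, Plin3, Mgll and Lipe was not tested.

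Set side by side, the lung response minus the liver response was 4.50 ± 0.75 on the log2 scale for G0s2, 1.83 ± 0.18 for Lipe and 1.61 ± 0.45 for Plin5. These 3 members were past the threshold of the interaction fit over all 12 libraries, in the direction of a higher lung value, and 0 in the other direction. Of 16111 genes tested, 8.89% were past it in that direction and 8.84% in the other, and because the interaction is built from the contrasts that chose the members nothing is read from the count. G0s2 and Lipe were past the threshold in all 17 alternative fits, and Plin5 in 11 of them. It did not pass without CLP lung replicate 2 (1.18), CLP liver replicate 2 (1.61) or sham lung replicate 1, 2 or 3 (1.54, 1.62 and 1.65). Plin2 (1.24 ± 0.45), Mgll (0.96 ± 0.35), Abhd5 (-0.57 ± 0.20) and Plin3 (-0.52 ± 0.19) did not pass, nor did Plin4, Cidec and Pnpla2. Plin2 passed without CLP lung replicate 3 (1.45), CLP liver replicate 1 (1.67) or sham liver replicate 1 (1.60), and Mgll without CLP liver replicate 3 (1.33) or sham liver replicate 1 (1.21). Abhd5 passed without CLP liver replicate 2 (-0.65) and Plin3 without CLP liver replicate 3 (-0.56).

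Ratios of counts within a library do not depend on how libraries are scaled. The ratio of G0s2 to Pnpla2, inhibitor to lipase, was 0.0109, 0.0122 and 0.0154 in CLP livers, against 0.135, 0.529 and 0.518 in sham livers. In lungs it was 0.110, 0.0745 and 0.0453 after CLP, against 0.0646, 0.0630 and 0.136 after sham surgery. The inhibitor was thus sparse relative to the lipase in every CLP liver, below any other library of the study, while the lung groups overlapped.

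Abhd5 to G0s2, co-activator to inhibitor, came to 25.6, 10.1 and 8.35 in CLP livers, against 1.06, 0.247 and 0.364 in sham livers. In lungs it came to 2.06, 3.82 and 4.08 after CLP, against 3.80, 3.73 and 2.34 after sham surgery. For the 2 coat proteins, the ratio of Plin2 to Plin3 was 5.34, 5.47 and 3.19 in CLP lungs, against 1.67, 1.74 and 1.78 in sham lungs, so every CLP lung was above every sham lung. In livers that ratio was 21.2, 8.04 and 12.7 after CLP, against 9.31, 21.5 and 19.4 after sham surgery, with wide overlap. On the log2 scale the mean ratio of CLP minus sham was -4.71 in liver and -0.19 in lung for G0s2 to Pnpla2, 4.82 and -0.01 for Abhd5 to G0s2, and -0.28 and 1.39 for Plin2 to Plin3.

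**Figure D4:**
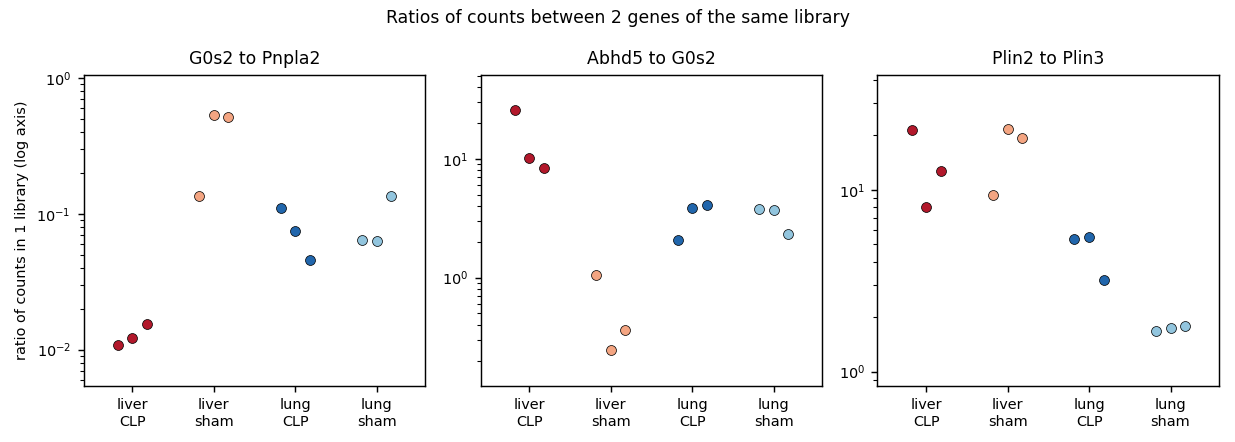
Ratios of counts between 2 genes of the same library (points, log axis) in CLP liver, sham liver, CLP lung and sham lung. G0s2 to Pnpla2 lies between 0.0109 and 0.0154 in CLP livers and between 0.135 and 0.529 in sham livers, and Plin2 to Plin3 lies between 3.19 and 5.47 in CLP lungs and between 1.67 and 1.78 in sham lungs.

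The contrast of sham lung with sham liver was not itself used to choose the members, and it compares their transcripts between the organs without CLP. Its libraries are also the sham side of the CLP contrasts that were in view. It is therefore not independent of that choice, and its values are a description. With TMM scaling, 7 of the 10 members were lower in sham lung, 2 were higher and 1 did not pass, where 38.5% of all 15414 genes tested were lower and 45.6% higher. Scaling by library totals alone raised the log2 fold change of the median gene by 1.31 and left 4 members higher and 3 lower. TMM factors were 1.65 to 1.66 in sham lungs and 0.63 to 0.71 in sham livers. Statements below hold under both scalings unless said otherwise.

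Of the 10 members, the coat transcripts Plin5 and Plin2 differed most between the sham organs, under both scalings. Plin5 averaged 2.06 ± 0.16 CPM in sham lungs and 106 ± 42 CPM in sham livers (SD, n = 3 each), with a log2 fold change of -5.67 ± 0.35 and adjusted p = 3.47e-06 by edgeR. Plin2 averaged 83.6 ± 2.9 CPM in sham lungs and 1444 ± 589 CPM in sham livers (log2 fold change -4.11 ± 0.31, adjusted p = 1.36e-06 by edgeR). The nearest libraries of the 2 organs were 32.8-fold apart for Plin5 and 9.57-fold apart for Plin2, and with library totals the log2 fold changes were -4.35 and -2.77. Plin3 (-0.83, adjusted p = 5.85e-06), Plin4 (-0.96, adjusted p = 0.0131) and Cidec (-1.26, adjusted p = 0.00829) were lower in sham lung by edgeR with TMM, but with library totals their signs turned to 0.48, 0.34 and 0.051. Plin3 then passed as higher in sham lung (adjusted p = 0.000643 by edgeR), and Plin4 and Cidec did not pass. Without a low-count filter Plin4 (-0.87) and Cidec (-1.17) did not pass, nor did Plin4 without sham lung replicate 3 (-0.88).

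Among the lipases, Mgll averaged 60.4 ± 1.4 CPM in sham lungs and 449 ± 101 CPM in sham livers (log2 fold change -2.89 ± 0.16, adjusted p = 4.20e-08 by edgeR; -1.57 with library totals). Lipe averaged 51.8 ± 1.8 CPM in sham lungs and 27.7 ± 2.4 CPM in sham livers (0.91 ± 0.09, adjusted p = 2.83e-06 by edgeR; 2.22 with library totals), and Abhd5 averaged 52.9 ± 0.9 CPM in sham lungs and 31.5 ± 2.5 CPM in sham livers (0.75 ± 0.08, adjusted p = 8.34e-06 by edgeR; 2.06 with library totals). Pnpla2 averaged 202 ± 28 CPM in sham lungs and 208 ± 25 CPM in sham livers and did not pass with TMM (-0.03 ± 0.13, adjusted p = 0.810 by edgeR). With library totals it passed, as higher in sham lung (1.27, adjusted p = 3.37e-06 by edgeR). G0s2 was lower in sham lung (-2.23 ± 0.56, adjusted p = 0.0135 by edgeR), and with library totals (-0.89) or without sham liver replicate 3 (-2.13) it did not pass.

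**Figure D5:**
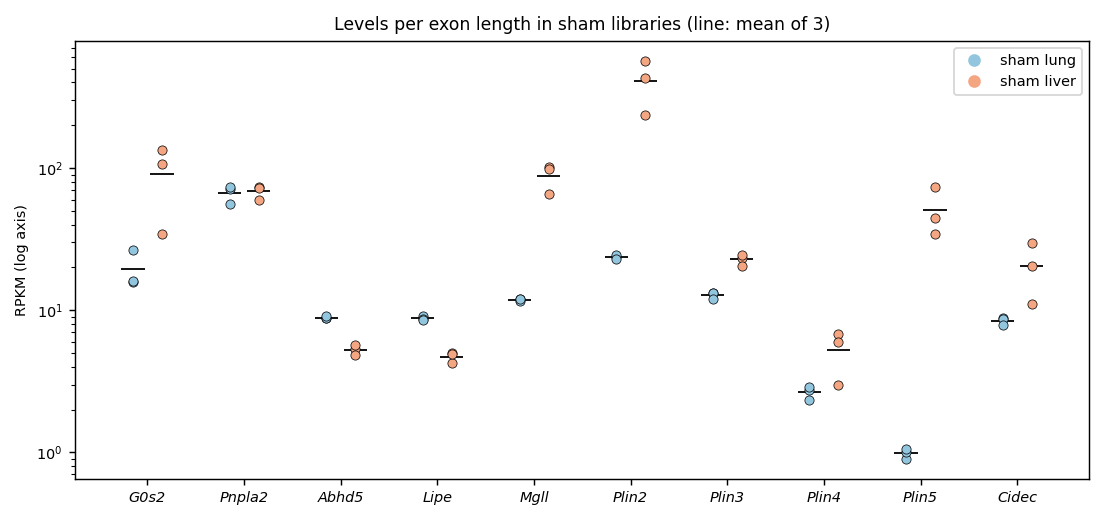
Length-scaled levels (RPKM, which is TMM-scaled CPM per kilobase of exon, log axis) of each gene in the 3 sham lung and 3 sham liver libraries, with the mean as a line. Plin2 and Plin5 differ most between the organs, at 23.8 and 0.989 RPKM in sham lung and 411 and 50.9 RPKM in sham liver.

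Divided by exon length (RPKM), the levels can be ordered within a group. In CLP livers Plin2 led with a mean of 314 RPKM, followed by Pnpla2 with 79.0 RPKM, and both stood clear of the next gene. Plin5, Cidec, Mgll and Plin3 came next with 29.7, 28.1, 22.0 and 22.0 RPKM and overlapped their neighbours, and Abhd5 (6.59), Plin4 (3.76), G0s2 (3.59) and Lipe (0.987 RPKM) closed the order, with Plin4 and G0s2 overlapping. In sham livers Plin2 led with 411 RPKM, and G0s2 was the second with 91.5 RPKM, overlapping Mgll (88.5), which overlapped Pnpla2 (68.7), which overlapped Plin5 (50.9 RPKM). Below them stood Plin3 with 22.8, Cidec with 20.4, Abhd5 with 5.29, Plin4 with 5.24 and Lipe with 4.70 RPKM, with a clear step between Cidec and Abhd5. G0s2 thus held the ninth place of the 10 genes in CLP livers and the second in sham livers.

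Lungs had another order. In CLP lungs Pnpla2 led with 64.6 RPKM, then Plin2 with 43.1 and G0s2 with 16.9 RPKM, each clear of the next, and Plin3 followed with 8.59 RPKM. From Abhd5 (7.45) through Lipe (6.58), Cidec (6.36), Mgll (5.72) and Plin4 (3.27) to Plin5 (1.75 RPKM), each overlapped the next. In sham lungs Pnpla2 had 66.9, Plin2 23.8, G0s2 19.5, Plin3 12.8, Mgll 11.9, Abhd5 8.88, Lipe 8.79, Cidec 8.41, Plin4 2.66 and Plin5 0.989 RPKM. There Plin2 overlapped G0s2, Plin3 overlapped Mgll, and Abhd5, Lipe and Cidec overlapped in turn.

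Over all 12 libraries, the genes whose log2 CPM most resembled that of G0s2 were Crat (Pearson r = 0.97), Rnf214 (0.97) and Dcun1d3 (0.93), out of 8976 genes compared. For Plin2 they were Agpat2, Pdcd6 and Hsd17b7, each with r = 0.99. The points share organ, surgery and library, so these values are a description.

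Hilpda, whose protein also inhibits ATGL, was higher after CLP in liver and lower in lung. It stood at 13.1, 11.7 and 7.57 CPM in CLP livers, against 4.19, 5.49 and 4.91 CPM in sham livers (log2 fold change 1.15 ± 0.24, adjusted p = 0.00534 by edgeR). In lungs it stood at 34.5, 21.1 and 33.0 CPM after CLP, against 60.9, 63.2 and 56.6 CPM after sham surgery (-1.01 ± 0.17, adjusted p = 0.00255 by edgeR). Its groups overlapped in neither organ, and its lung response minus its liver response was -2.20 ± 0.30 (adjusted p = 0.000389 by edgeR).

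Other lipases and lipase regulators were counted over a list of 24 genes. For this list and those below, the shares over all genes tested were 21.4% higher and 21.0% lower in liver. In lung they were 23.9% higher and 24.9% lower. In liver 3 of 22 tested were higher and 6 lower after CLP (median log2 fold change -0.14), and in lung 2 of 19 were higher and 8 lower (median -0.32). In liver Lpl, which releases fatty acids from circulating lipoproteins, was higher (1.20 ± 0.19, adjusted p = 0.00193 by edgeR), as was the carboxylesterase Ces1f (0.36). Angptl8, whose protein restrains lipoprotein lipase, was lower in CLP livers (-2.05 ± 0.37, adjusted p = 0.00311 by edgeR), and so were the amide hydrolase Faah (-0.87) and the monoglyceride hydrolase Abhd6 (-0.80). In lung Pnpla1, an ATGL relative that makes acylceramides in skin, was higher (4.04 ± 0.38, adjusted p = 0.000147 by edgeR). Pnpla1 averaged 2.16 ± 0.38 CPM in CLP lungs and 0.13 ± 0.07 CPM in sham lungs (SD), so its fold change rests on a very low sham level. Endothelial lipase Lipg was also higher in lung (0.51), and Pnpla6 (-0.85), Ddhd2 (-0.61) and the lysosomal acid lipase Lipa (-0.50) were lower.

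Other droplet proteins and droplet assembly factors formed a list of 20 genes, of which 1 was not matched. After CLP 2 of 17 tested were higher and 7 lower in liver (median -0.38), and 3 of 16 were higher and 6 lower in lung (median -0.14). Fitm2, which promotes droplet budding (-0.95 ± 0.13, adjusted p = 0.000816 by edgeR), the droplet hydrolase Ldah (-0.74) and Cideb, a hepatocyte relative of Cidec (-0.76), were lower in liver. Lower in lung were the lipid transfer protein Vps13c (-0.71), Ldah (-0.34) and Hsd17b11 (-0.49). Rab7, a GTPase of late endosomes, and Faf2 were higher in both organs, with log2 fold changes of 0.57 and 0.27 in liver and 0.34 and 0.28 in lung, and Rab18 was higher in lung (0.28).

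Triglyceride synthesis genes were higher or lower in similar numbers, 4 and 5 of 15 tested in liver (median -0.02) and 5 and 3 of 15 in lung (median 0.11). Dgat2, which catalyses the last step of triglyceride synthesis, was higher in CLP livers (0.85 ± 0.12, adjusted p = 0.000838 by edgeR), and the phosphatidate phosphatase Lpin2 was lower (-1.82 ± 0.27, adjusted p = 0.00144 by edgeR). Soat2, which esterifies cholesterol, was higher in both organs (1.03 in liver and 2.41 in lung), as was Agpat4 (1.42 in liver and 0.84 in lung). Its relatives Agpat1 and Agpat3 were lower in both, at -1.01 and -0.56 in liver and -0.27 and -0.42 in lung. In lung Agpat2 was higher (0.43) and Lpin1 lower (-0.65).

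Of the hormone and cAMP signals that act on lipolysis, 5 of 23 tested were higher and 5 lower in liver (median -0.27), and 8 of 26 were higher and 8 lower in lung (median -0.01). Pde4b, a phosphodiesterase that degrades cAMP, was higher in CLP livers (4.25 ± 0.25, adjusted p = 3.41e-05 by edgeR), together with the insulin receptor substrate Irs2 (2.02). Hcar2, an antilipolytic receptor that neutrophils also express, was higher in both organs (2.57 in liver and 3.97 in lung), beside the neutrophil marker values above. The natriuretic peptide receptor Npr1 was lower in both (-2.32 in liver and -1.09 in lung). Pde3b (-0.90) and the glucagon receptor Gcgr (-0.97) were lower in liver. In lung Irs1 (-2.19) and Prkaca, a catalytic subunit of protein kinase A (-0.69), were lower, and Pde4d (0.85) and Adora1 (1.15) were higher.

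Genes of fatty acid uptake, binding and activation showed 2 of 16 tested higher and 6 lower in liver (median -0.37), and 3 of 16 higher and 3 lower in lung (median 0.01). Cpt1a, which admits fatty acids to mitochondria, was lower in both organs (-0.73 ± 0.15 in liver, adjusted p = 0.00520, and -0.52 ± 0.10 in lung, adjusted p = 0.00379, both by edgeR). The fatty acid transport proteins Slc27a1 (-1.02 in liver and -0.75 in lung) and Slc27a3 (-2.56 in liver and -1.25 in lung) were lower as well. Slc27a3 was sparse in liver, at 0.31 ± 0.17 CPM after CLP and 1.94 ± 0.49 CPM in sham (SD), so its liver value rests on few reads. Acsl4, which activates long-chain fatty acids, was higher in both organs (0.51 in liver and 0.39 in lung). In liver the Acsl4 groups overlapped and its adjusted p was 0.0477 by edgeR. Fabp4 was higher in liver (1.85), and Fabp5 (0.41) and Slc27a4 (0.72) were higher in lung. None of these list counts is set apart from the background of all genes by a test here.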

How the data were processed

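The authors deposited a table of raw counts per gene for 12 libraries of liver and lung. Per the submitters' processing notes, the tools were FastQC, STAR 2.7.10a, featureCounts and DESeq2 on mm39; no source used here gives the annotation or the strand setting. Counts were fitted with edgeR 4.0.16 in R 4.3.3 (quasi-likelihood test, robust fit, TMM, genes kept by a minimum count of 10 and total of 15, Benjamini-Hochberg over all genes tested, threshold 0.05), each organ apart, sham organs together, and all 12 libraries for the interaction. Standard errors were the log2 fold change divided by the root of its F statistic. All CPM share 1 TMM scaling over 12 libraries, and RPKM divides them by the union of GENCODE M21 exons (GRCm38, an older build, used for lengths and overlaps only). The main edgeR fits, and not the alternatives, were tested on simulated counts with known changes. Those counts were drawn from the mean profile of 1 group per comparison at a single fixed spread. They therefore do not copy the real spread among replicates or the difference between organs. Alternatives were other size factors, library totals, no filter, DESeq2 1.42.0, a replicate block and leaving out each library.

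Members, gene lists and cell type markers were chosen with earlier results of these data known. Named genes are all members, Hilpda, Plin1, of each pathway list up to 3 genes per direction and organ with the lowest p, and the 3 genes most correlated with G0s2 and with Plin2 (mean log2 CPM of at least 3). Genes outside this rule are markers or overlapping genes. Replicates of a group differed by more than sampling noise in every pair, so each was counted. All count columns were used.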

Additional observations from a re-analysis of the deposited data

Results flagged for a closer look

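For 3 genes the change in lung differed from the change in liver in the interaction fit over all 12 libraries by edgeR. G0s2 had a change in lung minus change in liver of 4.50 on the log2 scale, Lipe of 1.83 and Plin5 of 1.61. All 3 were chosen with these contrasts known, so the values are a description. For Plin5 the difference was 1.18 and did not pass without CLP lung replicate 2.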

How the results depend on the processing

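With 3 libraries a group and 66 G0s2 reads over the CLP livers, small differences may have been missed. Each organ had 11 alternative fits and the interaction 17. In liver, G0s2, Lipe and Mgll were lower past the threshold in all 11, with log2 fold changes of -5.08 to -4.32, -2.44 to -2.14 and -2.32 to -1.75. In lung, Mgll, Plin3 and Lipe were lower and Plin2 higher in all 11 (Plin2 0.75 to 1.12). The cause of the changes below was not tested.

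Scaling by library totals moved the median gene by -0.20 in liver, -0.10 in lung and 0.12 in the interaction, giving 1689 genes higher and 3796 lower in liver (2647 and 2600 with TMM), 2977 higher and 4847 lower in lung (3698 and 3850 with TMM), and 1861 and 965 in the interaction (1432 and 1424 with TMM). Between sham organs it gave 11587 genes higher and 2422 lower (7025 and 5939 with TMM), and 4 members higher and 3 lower. Signs there reversed for Pnpla2 (1.27) and Plin3 (0.48), both past the threshold, and for Plin4 (0.34) and Cidec (0.051), which did not pass. Library totals also turned Pnpla2 in liver to -0.0041, and gave 5 members higher in the interaction. Pnpla2 between sham organs also reversed without a filter (0.057) and in DESeq2 (0.0041), and in lung with RLE size factors (0.0015). Members higher in lung numbered 2 with RLE, without a filter and in DESeq2. In the interaction, members lower numbered 1 without a filter and 2 in DESeq2.

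Leaving out 1 library at a time gave 0 to 1 members higher in liver, 1 to 2 in lung, and 2 to 5 members higher and 0 to 1 lower in the interaction. Members whose sign turned had ranges of -0.25 to 0.050 (Plin3) and -0.35 to 0.90 (Cidec) in liver, -0.11 to 0.10 (Pnpla2), -0.56 to 0.14 (G0s2) and -0.29 to 0.63 (Plin4) in lung, -0.16 to 0.079 (Pnpla2) between sham organs and -1.24 to 0.024 (Cidec) in the interaction; none of these passed with all libraries.

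Same-numbered libraries did not all deviate together by r above 0.1 (0.04 to 0.14 in liver, 0.02 to 0.10 in lung, -0.02 to 0.08 between sham organs, 0.06 to 0.20 between CLP organs), so the numbers were not taken as pairs. As a hint from the data, each library correlated best with its own number within liver and between CLP lung and CLP liver, and not in the other comparisons. The labels do not say whether liver and lung libraries of 1 number come from the same mouse, and no interaction fit models such a shared mouse. The fit without the block treats the libraries as separate. The replicate block ties CLP and sham libraries of 1 number together, so its counts below are no check on that pairing. With the replicate block, members were 0 higher and 3 lower in liver (Plin5 -0.72, adjusted p = 0.0804 by edgeR), 1 and 3 in lung (Abhd5 -0.23, adjusted p = 0.0822 by edgeR), 2 and 7 between sham organs and 3 and 0 in the interaction. Genes higher and lower with the block were 2649 and 2596 in liver and 3344 and 3526 in lung.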
